A study of Homo sapiens with 8 samples.

Results

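The 74 genes described here encode proteins of the mitochondrial ribosome. They were taken by name and level: every entry of the deposited table whose symbol is MRPL or MRPS, then a number, with or without a final A, B or C, and whose mean over the 8 libraries was at least 1 RPKM (reads scaled to gene model length and library depth). Of the 52576 genes listed, 13979 reached that mean, and they are the genes tested. The MRPL genes, named for the large subunit, gave 45 of the members, and the MRPS genes, named for the small subunit, gave 29. MRPL46 was listed under both ENSG00000259494.1 and ENSG00000173867.7, whose exons overlap, so the 74 entries carry 73 symbols and the MRPL46 entries are not independent of each other. Of 75 entries with such a name, MRPL30 alone fell short, with a mean of 0.62 RPKM. MRPS17 lay just inside, at 1.24 RPKM, and MRPL48 followed at 4.24 RPKM.

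The libraries came from NCI-H2009, an established human lung adenocarcinoma line. All 8 had been given dCas9-KRAB, a cutting-dead Cas9 joined to a repressor domain, so the controls carry the repressor as well. There were 4 groups of 2 libraries each. One received no guide RNA, one a non-targeting guide with no match in the human genome, and the others e3 guide 1 or e3 guide 2, a pair of guides to the same enhancer. That enhancer, e3, lies on chromosome 8 beyond MYC, and the comparison asks which genes change when it is repressed. The labels do not say whether both libraries of a group are separate cultures, or whether the cells were a pool or a clone, so the p-values measure only how these samples vary, and that variation may be technical. Poly(A) RNA was sequenced from bulk cells, in which a fall in every cell and a rise in the share of cells with a low level cannot be told apart.

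Mitochondria keep a ribosome of their own, which translates the few proteins that mitochondrial DNA encodes, all of them core subunits of the respiratory chain and of the ATP synthase. Its ribosomal RNAs are made inside the organelle. Its proteins are encoded in the nucleus, translated in the cytosol and imported, and each is needed in step with the others, since the small subunit reads the mRNA and the large subunit joins the amino acids. Members numbered up to 36 in the large subunit and up to 21 in the small one are mostly named after a bacterial counterpart, while higher numbers mark proteins added in mitochondria. Names and places can differ: structures put the proteins of MRPS30 and MRPS18A in the large subunit, and the protein of MRPS36 is now assigned to a mitochondrial dehydrogenase complex. Nuclear genes for mitochondrial proteins, and genes for ribosome production in general, are among the known targets of MYC, a transcription factor that drives growth.

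The inferred depth was between 3868829 and 5745112 reads in genes per library. Member values rested on a median of 194.5 reads in a library, and 72 of 74 members had at least 20 reads in every library. MRPS17, at a mean of 1.62 reads, and MRPL49, at 25.5, were the thinnest. MYC itself stood at 74.6 and 72.7 RPKM without a guide, 88.9 and 90.1 under the non-targeting guide, 42.4 and 43.4 under guide 1, and 36.3 and 36.2 under guide 2. The e3 and control libraries did not overlap (exact two-sided permutation test over 70 arrangements, p = 0.0286, the smallest that 4 against 4 libraries allow). The first principal component of all tested genes held 38.9% of the variance and set both libraries without a guide apart from the other 6. The 5 epithelial markers summed to 2863 and 2954 RPKM without a guide, 2287 and 2424 under the non-targeting guide, 2627 and 2641 under guide 1, and 2503 and 2559 under guide 2. Of these, CDH1 was higher with the e3 guides against the controls (0.23 ± 0.05, SE, adjusted p = 0.0320) and the other 4 were not called, CDH1 and KRT19 were higher when only the non-targeting libraries served as controls, and KRT8, KRT18 and KRT19 were lower with the non-targeting guide against no guide (adjusted p = 0.00229, 0.00113 and 0.00448). Against no guide 1 of the 5 was higher and 2 were lower with the e3 guides. Of the 5 listed markers of other cells, COL1A1 alone reached a mean of 1 RPKM. They summed to 3.26 and 4.55 RPKM without a guide, 5.83 and 5.06 under the non-targeting guide, 7.26 and 6.63 under guide 1, and 7.17 and 6.15 under guide 2, nearly all of it from the fibroblast gene COL1A1, which was not called with the e3 guides against the 4 controls (adjusted p = 0.141) but was higher against no guide alone, at 0.59. The part of either marker list in the results was not tested. The blood cell gene PTPRC, the endothelial gene CDH5 and the fibroblast gene COL3A1 stayed at or below 0.08 RPKM. The fibroblast gene COL1A2 stood at 0.08 and 0 RPKM without a guide and 0.23 and 0.12 under the non-targeting guide. It stood at 0.50 and 0.38 RPKM under guide 1 and 0.51 and 0.60 under guide 2. Its e3 libraries thus lay above its controls, at levels too low to be tested.

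Taken as a whole, the members were lowest with the e3 guides and highest with the non-targeting one, in both subunits. The summed level of all 74 was 2370 and 2299 RPKM without a guide, 2603 and 2608 under the non-targeting guide, 2205 and 2220 under guide 1, and 2118 and 2092 under guide 2. All e3 libraries lay below all control libraries, and the libraries of a group lay closer to each other than to those of any other group. The large subunit members summed to 1418 and 1347 RPKM without a guide, 1554 and 1555 under the non-targeting guide, 1313 and 1321 under guide 1, and 1245 and 1247 under guide 2. The small subunit members summed to 953 and 952, 1049 and 1053, 893 and 899, and 873 and 844 RPKM in the same order of groups. Both sums thus fell in the same order: non-targeting guide, no guide, guide 1, guide 2. As a share of the reads in genes, the members took 0.374% and 0.372% without a guide, 0.419% and 0.418% under the non-targeting guide, 0.350% and 0.350% under guide 1, and 0.333% and 0.332% under guide 2.

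Group means of single genes were also ranked. The non-targeting group had the highest group mean in 54 of 74 members (73.0%), 34 of 45 in the large and 20 of 29 in the small subunit, against 24.4% of all tested genes. Guide 2 had the lowest mean in 45 of 74 (60.8%), 27 of 45 in the large and 18 of 29 in the small subunit, against 26.0% of all tested genes. Relative to the mean of the 4 control libraries on the log2(RPKM + 1) scale, the median member stood at -0.07 and -0.10 without a guide, 0.08 and 0.07 under the non-targeting guide, -0.19 and -0.14 under guide 1, and -0.23 and -0.25 under guide 2. The median of all tested genes lay between -0.014 and 0.014 in every library.

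**Figure D1:**
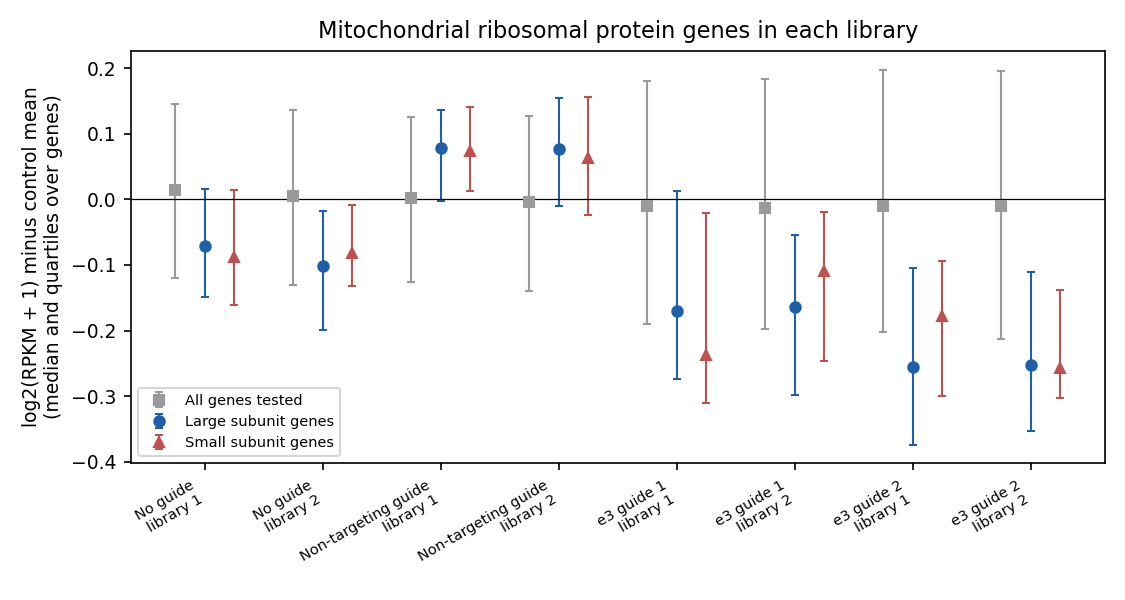
Median difference from the mean of the 4 control libraries, on the log2(RPKM + 1) scale, for the 45 large subunit genes, the 29 small subunit genes and all 13979 genes tested, in each of the 8 libraries; bars span the lower to the upper quartile over genes. Both subunits lie above 0 in the non-targeting libraries and below 0 in the other 6, while all genes stay near 0.

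Against the 4 controls, 9 members were lower with the e3 guides and none was higher, by limma at an adjusted p under 0.05. With a correlation between libraries of a group estimated from the data (0.32), 1 member was called, with the means of the 4 groups as the samples none was, and in a 4-group model 24 were. In the main fit 2.58% of all tested genes were called lower, so the members' share of 9 in 74 stood above that background. For the other fits, and for the alternatives given below, the share of all tested genes is not given. Their counts therefore have no background to stand beside. The 9 were 6 of 45 in the large subunit and 3 of 29 in the small one. The change was below 0 in 69 of 74 members (93.2%), against 53.4% of all tested genes. The median change was -0.19 on the log2(RPKM + 1) scale, or 0.874-fold, with -0.20 for the large and -0.19 for the small subunit and -0.02 for all tested genes. In 18 members all 4 e3 libraries lay below all 4 controls (7.51% of all tested genes did), 11 of them in the large subunit and 7 in the small one. In none did all e3 libraries lie above the controls (7.58% of all tested genes). Leaving out 1 library gave 5 calls without either library that had no guide, 3 or 4 without the first or second non-targeting library, 2 or 4 without those of guide 1, and 0 or 3 without those of guide 2. Under the 17 other settings between 61 and 71 members were below 0, and the median stayed between -0.22 and -0.15. Some of these settings leave each fitted change as it is, so they could not move these values. They are no filter on low values, a block by replicate number, the estimated correlation, group means and the 4-group model.

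**Figure D2:**
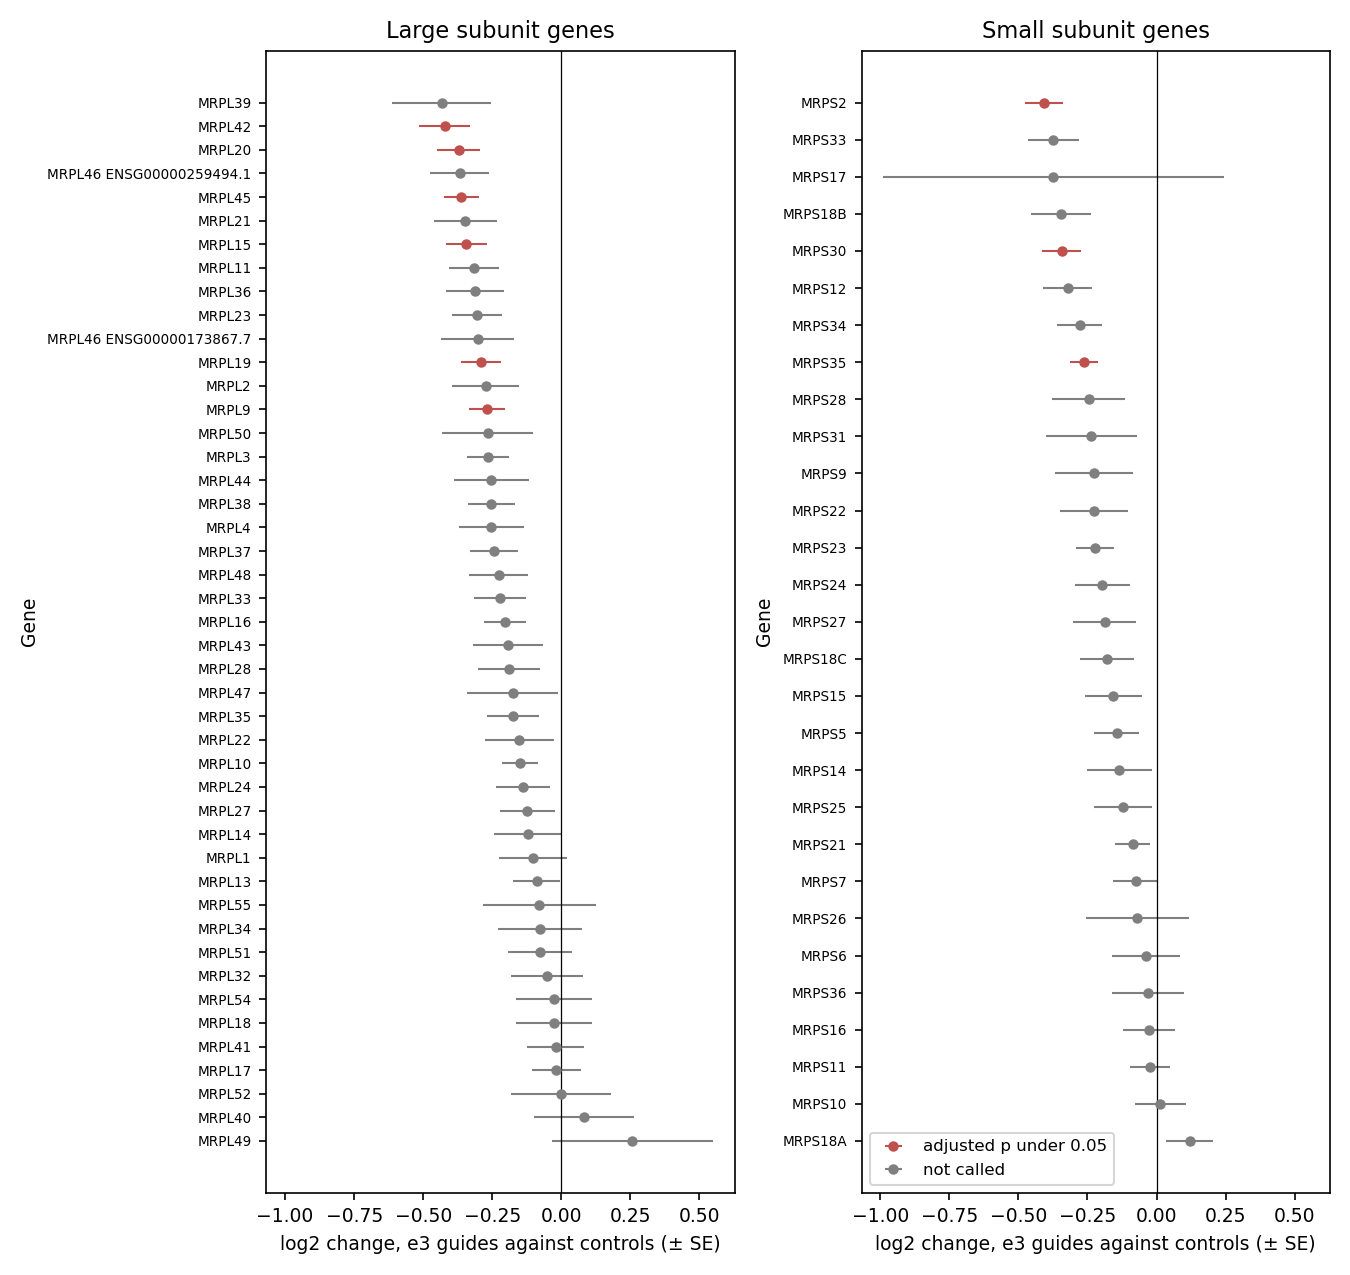
log2 change of each member, e3 guides (4 libraries) against controls (4 libraries), on the log2(RPKM + 1) scale with the standard error from limma; the left panel holds the large and the right panel the small subunit genes, and red points passed an adjusted p under 0.05. In the large subunit 42 of 45 points and in the small subunit 27 of 29 lie below 0.

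In the large subunit, MRPL42, a protein of the mitochondrial ribosome, had the largest fall among the called members. It stood at 13.4 and 13.4 RPKM without a guide, 14.6 and 13.0 under the non-targeting guide, 8.65 and 11.3 under guide 1, and 9.78 and 9.92 under guide 2. The highest e3 library was below the lowest control, and the change was -0.42 ± 0.09 (SE, adjusted p = 0.0348). MRPL15 and MRPL19, counterparts of bacterial large subunit proteins, also fell. MRPL15 went from 61.6 ± 3.3 RPKM in the controls to 48.4 ± 3.8 with the e3 guides (SD, n = 4 each), with a change of -0.34 ± 0.07 (SE, adjusted p = 0.0312). MRPL19 went from 22.8 ± 1.5 to 18.4 ± 0.7 RPKM, with an adjusted p of 0.04996 that only just passed. MRPL9, the most abundant large subunit member at a mean of 74.0 RPKM, fell from 81.1 ± 5.8 to 67.0 ± 2.8 RPKM (adjusted p = 0.0488). Not all calls were equally firm. Of the 17 other settings, MRPL19 kept its call in 2, MRPL9 in 4, MRPL42 in 6 and MRPL15 in 8. The other called members, described below, kept theirs in between 7 (MRPS30) and 15 (MRPS2).

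MRPL20 and MRPL45 were the called members with the largest falls that hold a searched motif before their start. MRPL20 is the counterpart of a bacterial protein that binds ribosomal RNA early in assembly, and MRPL45 sits at the exit of the peptide tunnel and ties the ribosome to the inner membrane. Their 250 bases before the start are shown 5′ to 3′, from RefSeq (GRCh38.p14), MRPL20 from the minus strand of chr1:1407294-1407543 and MRPL45 from the plus strand of chr17:38296918-38297167. Capitals mark, on either strand, the E-box CACGTG (the site that MYC with its partner MAX is known to bind), the ETS motif CCGGAAG (bound by factors such as GABPA) and the NRF1 motif GCGCANGCG.
MRPL20: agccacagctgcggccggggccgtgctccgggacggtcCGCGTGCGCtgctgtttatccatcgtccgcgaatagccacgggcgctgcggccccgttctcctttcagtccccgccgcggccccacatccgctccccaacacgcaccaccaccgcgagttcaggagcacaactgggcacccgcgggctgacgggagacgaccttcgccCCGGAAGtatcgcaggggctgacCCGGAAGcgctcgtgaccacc
MRPL45: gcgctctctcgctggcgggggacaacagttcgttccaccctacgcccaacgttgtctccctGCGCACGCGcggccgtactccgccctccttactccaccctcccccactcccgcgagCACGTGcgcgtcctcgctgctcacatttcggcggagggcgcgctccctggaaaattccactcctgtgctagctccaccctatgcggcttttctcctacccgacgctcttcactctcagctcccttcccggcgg
The MRPL20 stretch holds a pair of ETS motifs and an NRF1 motif, and the MRPL45 stretch an E-box and an NRF1 motif.

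MRPL20 stood at 35.7 and 35.6 RPKM without a guide, 37.7 and 42.5 under the non-targeting guide, 29.6 and 30.1 under guide 1, and 29.7 and 26.6 under guide 2. All e3 libraries lay below all controls, and the change was -0.37 ± 0.08 (SE, adjusted p = 0.0289). MRPL45 stood at 45.9 and 41.7 RPKM without a guide, 41.1 and 41.2 under the non-targeting guide, 33.9 and 31.0 under guide 1, and 32.6 and 33.7 under guide 2. Here the no guide libraries were higher than the non-targeting ones, unlike in most members, and the change was -0.36 ± 0.06 (SE, adjusted p = 0.0154). A pseudogene copy of MRPL45, MRPL45P2, was listed at a mean of 3.55 RPKM, so how reads were shared between the copies is uncertain.

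In the small subunit, MRPS2, the counterpart of a bacterial small subunit protein, had the largest fall, and its adjusted p was the lowest of all members. It stood at 37.5 and 33.9 RPKM without a guide, 38.2 and 35.5 under the non-targeting guide, 26.6 and 27.5 under guide 1, and 25.4 and 28.8 under guide 2. The lowest control lay well above the highest e3 library, and the change was -0.41 ± 0.07 (SE, adjusted p = 0.0128). MRPS35, a protein added in mitochondria and the second most abundant small subunit member, stood at 95.0 and 95.1, 93.8 and 92.1, 78.6 and 81.5, and 76.1 and 76.4 RPKM in the same order of groups. The 4 controls were close together and the change was -0.26 ± 0.05 (SE, adjusted p = 0.0209). MRPS30, named for the small subunit though its protein sits in the large one, fell from 29.97 ± 1.9 to 23.4 ± 1.1 RPKM (SD, n = 4 each, adjusted p = 0.0284).

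**Figure D3:**
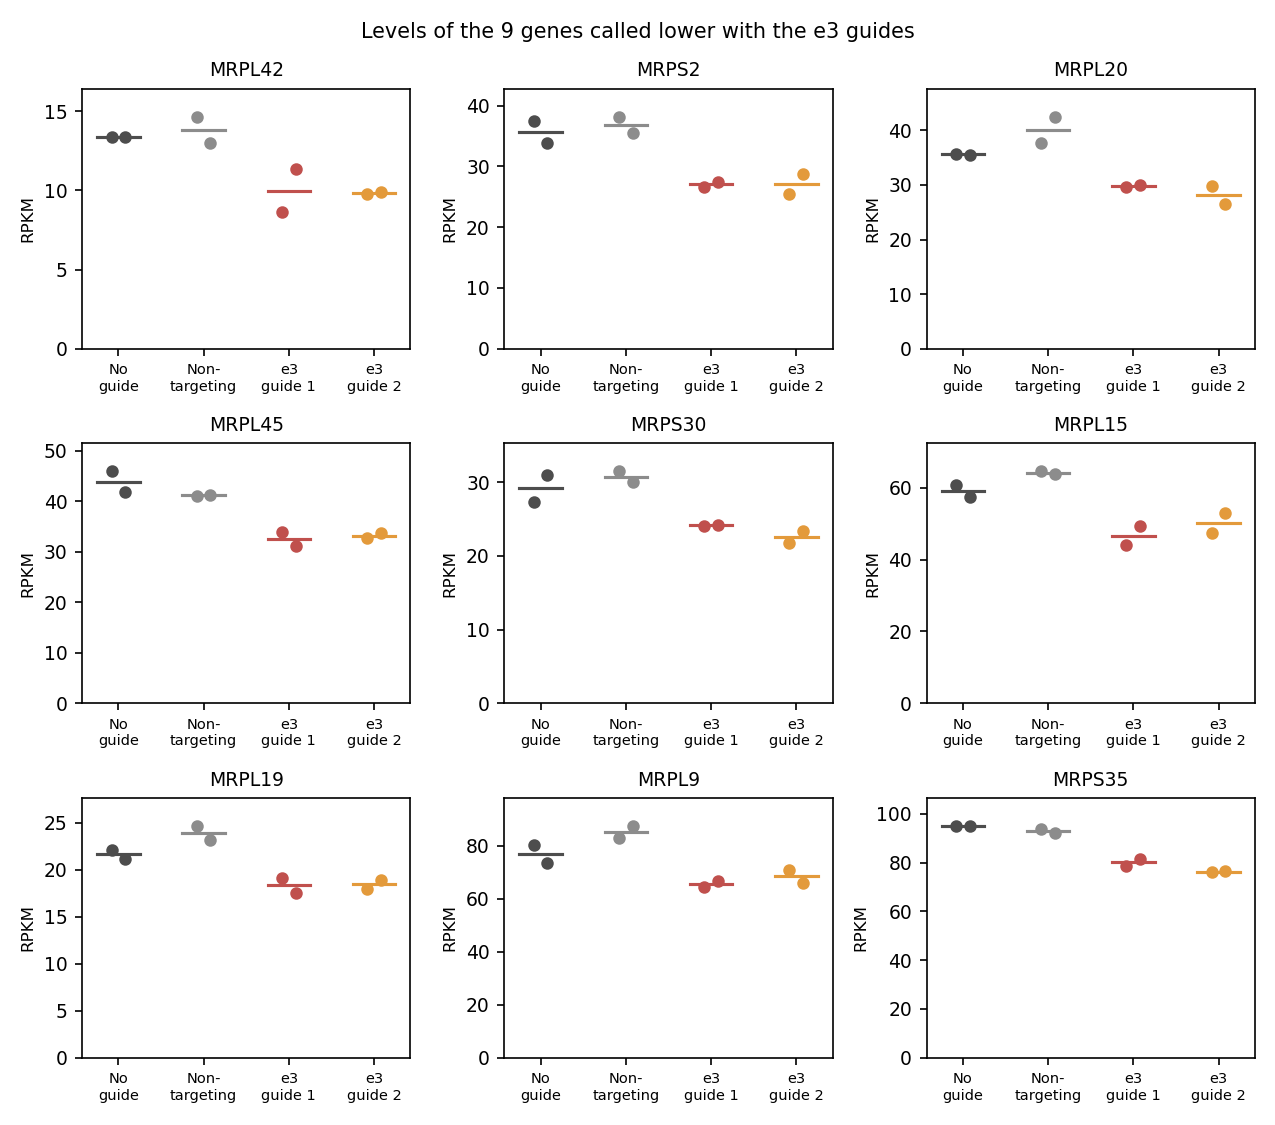
RPKM of the 9 members called lower with the e3 guides, with 1 point per library and a line at each group's mean; axes start at 0. In every panel both e3 groups lie below both control groups, and the non-targeting mean is the highest of the 4 in 7 of the panels.

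The other 65 members did not pass. MRPL39 had the largest drop among them in the fitted change, at -0.43 ± 0.18 (SE, adjusted p = 0.196), but the libraries of a group differed widely, for example 23.6 and 15.2 RPKM without a guide. MRPS33 missed the threshold narrowly, with a change of -0.37 ± 0.09 (adjusted p = 0.0512). MRPS12, part of the decoding centre and the most abundant small subunit member at a mean of 90.4 RPKM, gave -0.32 ± 0.09 (adjusted p = 0.0710). MRPL11, at the base of the stalk that recruits translation factors, gave -0.32 ± 0.09 (adjusted p = 0.0735), and MRPL3, near the peptidyl transferase centre, gave -0.27 ± 0.08 (adjusted p = 0.0786). Both MRPL37 (72.3 RPKM) and MRPL51 (68.7 RPKM), next in level to MRPL9 in the large subunit, and MRPS23 (81.9 RPKM), next to MRPS35 in the small one, were not called either.

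Other members with known roles also gave changes that did not pass. MRPL41 gave -0.02 ± 0.10 (adjusted p = 0.929). MRPS7, in the head of the small subunit, gave -0.08 ± 0.08 (adjusted p = 0.641), and MRPS16, whose loss causes a known inherited deficiency of mitochondrial translation, gave -0.03 ± 0.09 (adjusted p = 0.895). MRPS22, another gene mutated in such disease, gave -0.23 ± 0.12 (adjusted p = 0.310), and MRPS27, an RNA-binding protein with pentatricopeptide repeats, gave -0.19 ± 0.11 (adjusted p = 0.368). The 3 members related to 1 bacterial small subunit protein spread out: MRPS18B gave -0.35 ± 0.11 (adjusted p = 0.0989), MRPS18C -0.18 ± 0.10 (adjusted p = 0.318) and MRPS18A 0.12 ± 0.09 (adjusted p = 0.458). Apart from MRPL15, the members on chromosome 8, MRPS28 at -0.25 ± 0.13 and MRPL13 at -0.09 ± 0.09, were not called (adjusted p = 0.312 and 0.593).

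The fitted change was above 0 in 5 members, none called. MRPL49 had the largest, 0.26 ± 0.29 (SE, adjusted p = 0.662). Its libraries without a guide stood at 63.5 and 29.8 RPKM and those with the non-targeting guide at 21.3 and 25.1, so the controls alone spanned the e3 range of 30.4 to 46.1 RPKM. Its exons overlap those of FAU and SYVN1 on the other strand, and whether counting used strand is not given in the sources used here. The others were MRPS18A, MRPL40 at 0.08 ± 0.18, MRPS10 at 0.01 ± 0.09 and MRPL52 at 0.00 ± 0.18. At the low end, MRPS17 was listed at 0 in 4 libraries and reached 4.93 RPKM in another. The next lowest, MRPS25 (6.80 RPKM) and MRPS31 (7.65 RPKM) in the small and MRPL48 (4.24 RPKM), MRPL1 (8.69 RPKM) and MRPL55 (9.86 RPKM) in the large subunit, were not called.

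Counterparts of bacterial proteins and mitochondrial additions were both among the called members, and the difference between them was not tested. Against 2.58% of all tested genes, of 26 large subunit members with bacterial numbering, 4 were lower and the median change was -0.20, against 2 of 19 and -0.23 for the higher numbers. In the small subunit, 1 of 16 was lower with bacterial numbering at a median of -0.14, against 2 of 13 and -0.23 for the higher numbers. With MRPS18A and MRPS30 counted in the large subunit, 7 of 47 large and 2 of 27 small subunit members were lower, with medians of -0.20 and -0.19.

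Against the non-targeting guide alone, 17 members were lower, 11 in the large and 6 in the small subunit, and MRPL49 was higher, against 3.54% lower and 3.3% higher among all tested genes. The median change was -0.29 (large -0.29, small -0.26, all tested genes 0.00), 70 of 74 members were below 0, and in 45 of 74 all e3 libraries lay below both non-targeting ones (16.3% of all tested genes). MRPL3 had the smallest p, going from 69.7 RPKM to 53.4 RPKM on average, a change of -0.38 ± 0.06 (SE, adjusted p = 0.0164). MRPL9 gave -0.34 ± 0.06 (adjusted p = 0.0184), MRPS2 -0.43 ± 0.08 (adjusted p = 0.0184) and MRPS12 -0.45 ± 0.08 (adjusted p = 0.0204). MRPS31 had the largest fall, -0.54 ± 0.11 (adjusted p = 0.0251). MRPL49 gave 0.70 ± 0.16 (adjusted p = 0.0403). Without the filter on low values 5 members were called. No member was called when either non-targeting library was left out, 5 were without the first guide 2 library and 10 without the second.

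Against the libraries without a guide, 9 of 74 members were lower, 5 in the large and 4 in the small subunit, and none was higher, against 8.03% lower among all tested genes, so that the share of members lay nearer to the background. The median change was -0.13 (large -0.14, small -0.08, all tested genes -0.03), and 54 of 74 members were below 0 (54.6% of all tested genes). In 21 members all e3 libraries lay below both without a guide (3161 of all 13979 tested genes), and in 3 they lay above both (2572 of 13979). MRPL45 gave -0.40 ± 0.07 (SE, adjusted p = 0.00795), MRPS35 -0.28 ± 0.05 (adjusted p = 0.0113) and MRPS2 -0.38 ± 0.08 (adjusted p = 0.0149). Both MRPL46 entries were called, at -0.48 ± 0.11 and -0.50 ± 0.12 (adjusted p = 0.0226 and 0.0272). Without the filter on low values 3 members were called. Leaving out the first or second library without a guide gave 1 or 3 calls, and leaving out the first or second guide 2 library 3 or 5.

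These comparisons share the e3 libraries, and their values stand side by side. The change was below 0 against each control taken alone in 51 of 74 members, and in another 19 it was below 0 against the non-targeting guide and above 0 against no guide. It was the reverse in 3, and above 0 against both in 1. The 5 members called lower against each control taken alone were MRPL20, MRPL45, MRPS2, MRPS30 and MRPS35, all of which were also called against the 4 controls together. In MRPS31 the choice of control decided the picture, with levels of 6.40 and 6.52 RPKM without a guide, 10.1 and 10.7 under the non-targeting guide and 6.55 to 7.60 with the e3 guides. It gave -0.54 against the non-targeting guide and 0.07 against no guide (adjusted p = 0.719).

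The control groups themselves differed in these genes, more in the median than in the number of calls. With the non-targeting guide 7 of 74 members were higher than without a guide, 5 in the large and 2 in the small subunit, and 1 was lower. Among all tested genes 6.55% were higher and 5.81% lower, so the called share of members lay near the background. The median change was 0.16 (large 0.16, small 0.15, all tested genes -0.01), and in 45 of 74 members both non-targeting libraries lay above both without a guide (27.2% of all tested genes). MRPL18, a protein of the large subunit's central protuberance, stood at 41.99 and 36.02 RPKM without a guide and at 56.7 and 55.3 under the non-targeting one, a change of 0.51 ± 0.08 (SE, adjusted p = 0.00622). MRPS26 gave 0.68 ± 0.12 (adjusted p = 0.0111) and MRPS31 0.61 ± 0.12 (adjusted p = 0.0121). The fall was in MRPL46 under ENSG00000173867.7, at -0.40 ± 0.10 (adjusted p = 0.0385). The median difference between the controls, 0.16, is close in size to that of the e3 guides against all controls, -0.19. With 2 control groups that differ, an effect of the e3 guides on the median and a difference that any groups of these cells may show cannot be told apart. Without the filter on low values 4 members were called. Without the first library that had no guide, or without the second non-targeting library, 1 member was called, and without the first non-targeting library 2 were. There were 5 without the second library that had no guide or without either guide 2 library.

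**Figure D4:**
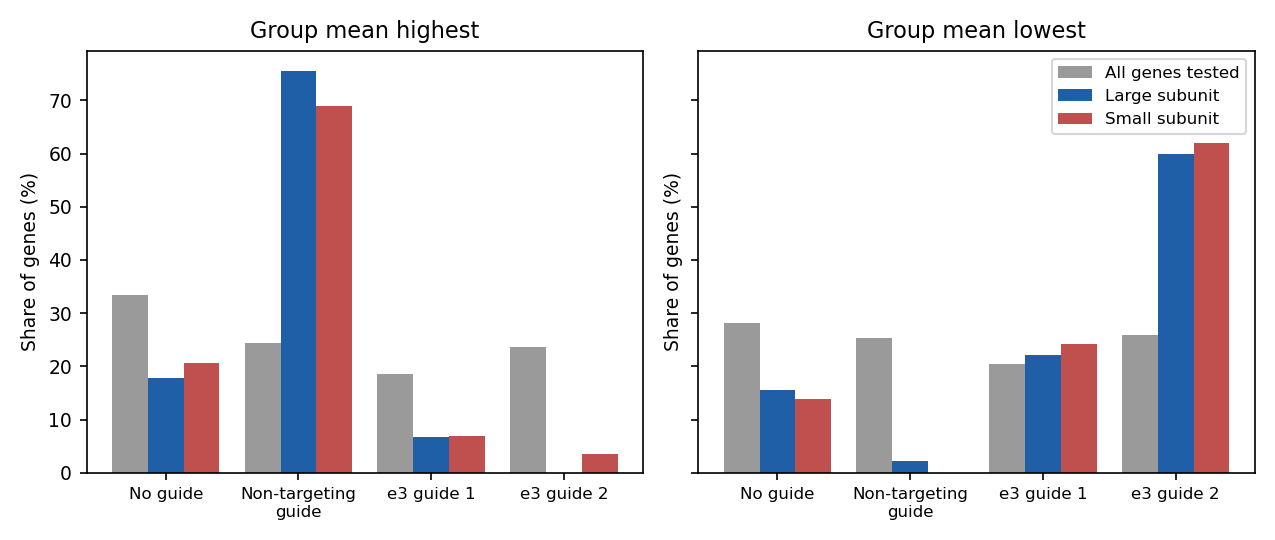
Share of genes (%) in which each of the 4 groups had the highest (left) or the lowest (right) mean RPKM, for all 13979 genes tested and for the large and the small subunit genes. The non-targeting group was highest in 75.6% of large and 69.0% of small subunit genes, and guide 2 was lowest in 60.0% and 62.1%.

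Each guide alone gave lower members. With guide 1, 10 were lower than the controls, 6 in the large and 4 in the small subunit, against 4.03% of all tested genes, with a median change of -0.16 (large -0.16, small -0.15). MRPS12 gave -0.39 ± 0.07 (SE, adjusted p = 0.0108), MRPL45 -0.38 ± 0.07 (adjusted p = 0.0121) and MRPL15 -0.40 ± 0.07 (adjusted p = 0.0135). With guide 2, 20 were lower, 16 in the large and 4 in the small subunit, against 7.62% of all tested genes, with a median change of -0.23 (large -0.24, small -0.20). MRPS35 gave -0.30 ± 0.04 (adjusted p = 0.00273), MRPL47 -0.49 ± 0.07 (adjusted p = 0.00311) and MRPL20 -0.41 ± 0.07 (adjusted p = 0.00853). The comparisons share the control libraries. Both come from the 4-group model, whose error holds the spread within groups but not the difference between the control groups. In that model both guides together gave 24 calls against the controls. The 10 and 20 are therefore not on the same footing as the 9 of the main fit. Without the filter on low values there were 6 calls for guide 1 and 12 for guide 2. Leaving out either library of the guide concerned gave 2 or 3 calls for guide 1 and 4 for guide 2. Leaving out the first or second non-targeting library gave 6 or 5 calls for guide 1 and 10 for guide 2, while guide 1 had 6 calls without the second and guide 2 had 13 without the first library that had no guide.

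Between the guides, limma called no member, and 0.00715% of all tested genes were called lower with guide 2. The unadjusted limma p was under 0.05 in 7 of 74 members and in 1451 of all 13979 tested genes. With a minimum mean of 5 RPKM 1 member was called. The median change of guide 2 against guide 1 was -0.07 (large -0.07, small -0.05, all tested genes 0.00). MRPL47 had the widest gap relative to its error, with 40.0 and 45.4 RPKM with guide 1 and 26.6 and 28.0 under guide 2, a change of -0.63 ± 0.08 (SE, adjusted p = 0.0558). Its guide 1 level was like that of the non-targeting libraries, 41.9 and 42.1 RPKM, so that its low level was seen with guide 2.

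In the rest of the machinery for mitochondrial translation, few genes passed the test against the controls. Their called counts stand beside 2.58% called lower among all tested genes. Counts of an unadjusted limma p under 0.05 stand beside 3102 of all 13979 tested genes. Of 6 mitoribosomal proteins that carry other symbols, none was called by limma, 2 had an unadjusted p under 0.05 and the median change was -0.17. DAP3, the GTP-binding protein of the small subunit, gave -0.20 ± 0.08 (SE, adjusted p = 0.165). Of 24 genes for assembly of the mitochondrial ribosome and modification of its RNA, 1 was lower, the pseudouridine synthase TRUB2 at -0.40 ± 0.09 (adjusted p = 0.0307), with a median of -0.12. Of 15 translation factors none was called, 2 had an unadjusted p under 0.05 and the median was -0.17; the elongation factor TUFM gave -0.29 ± 0.09 (adjusted p = 0.0977). Of 20 genes for charging mitochondrial tRNAs, 2 were lower, the synthetases MARS2 at -0.52 ± 0.11 and IARS2 at -0.43 ± 0.10 (adjusted p = 0.0298 and 0.0369), with a median of -0.14. None of these lists held a called rise.

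Of 16 genes for mitochondrial transcription and mRNA handling, 2 were lower and the median was -0.27. LRPPRC, which stabilizes mitochondrial mRNAs, gave -0.32 ± 0.07 (SE, adjusted p = 0.0312), and TFB2M, which lets the mitochondrial RNA polymerase start, gave -0.50 ± 0.12 (adjusted p = 0.0484). The polymerase itself, POLRMT, gave -0.27 ± 0.10 (adjusted p = 0.169), and TFAM, which packs mitochondrial DNA, -0.26 ± 0.08 (adjusted p = 0.0909). Of the 8 mitochondrially encoded genes tested, which include the templates of this ribosome, 3 were lower, MT-ND1, MT-ND2 and MT-ND3, with a median of -0.19. Unlike most of the ribosomal protein genes, MT-ND3 was higher without a guide (1033 and 927 RPKM) than under the non-targeting guide (858 and 871), and its e3 libraries lay between 624 and 756 RPKM. Of 10 nuclear regulators tested, MYC was lower, at -1.02 ± 0.10 (adjusted p = 0.00215), and the other 9 were not called; NRF1 gave -0.01 ± 0.14 and GABPA -0.02 ± 0.13 (adjusted p = 0.980 and 0.936).

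For scale, 67 of 83 cytosolic ribosomal protein genes were lower with the e3 guides against the controls, at a median of -0.35, and 1 of 35 genes for subunits of respiratory complex I was lower, at a median of -0.12, beside 2.58% of all tested genes. Against the non-targeting guide alone the medians were -0.38 for the cytosolic and -0.29 for the mitochondrial ribosomal protein genes, and against no guide alone -0.32 and -0.13. Between the controls they were 0.08 and 0.16. The differences between these lists were not tested.

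Promoter sequences were matched for 64 of the 74 members (RefSeq, GRCh38.p14, 250 bases before to 50 after the start), and 4 motifs were searched on both strands. An E-box CACGTG, as in the MRPL45 stretch above, was found in 6 of 64 members (9.38%), against 10.3% of the 8550 promoters of tested genes that were matched and 7.43% of all 27305 promoters. The ETS motif CCGGAAG, as in the MRPL20 stretch, was found in 26 (40.6%), against 20.2% and 10.7%. The NRF1 motif GCGCANGCG was found in 11 (17.2%), against 15.3% and 8.05%. The YY1 motif AAGATGG, which holds the core that the factor YY1 binds, was found in 23 (35.9%), against 7.95% and 6.06%. No matches of different motifs overlapped. Of the matches, 30 of 34 for ETS and 21 of 24 for YY1 lay within 100 bases of the start, against 5 of 13 for NRF1 and 1 of 6 for the E-box. Most YY1 matches lay after the start and not before it. Those in the called MRPL20, MRPL42, MRPL45 and MRPS30 were centred 18, 11, 16 and 16 bases after it.

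The median changes with the e3 guides against the controls are given here with and without each motif, and their differences were not tested. The median was -0.21 in the members with an E-box and -0.19 in the other 58, -0.19 with and -0.19 without an ETS motif, -0.24 with and -0.19 without an NRF1 motif, and -0.20 with and -0.19 without a YY1 motif. Of the 8 called members with a promoter, 1 held an E-box, 1 an ETS motif, 2 an NRF1 motif and 4 a YY1 motif. A match of letters is not evidence of binding, and these windows leave out more distant sites.

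Shared sequence and overlapping genes limit some values. Of the members, 72 had an entry in the GENCODE 29 annotation, and MRPS21 and the called MRPL45 had none. In 33 the exons overlap another gene of that annotation on either strand. The called MRPL9, MRPL19, MRPL20, MRPL42 and MRPS2 are among these. Among the 39 without such overlap, 3 were called lower with the e3 guides against the controls (2.58% of all tested genes were). In 36 of the 39 the change was below 0 (53.4% of all tested genes), at a median of -0.18. The table also listed 43 pseudogenes named after members. Of these, 2 reached a mean of 1 RPKM: MRPL45P2, given above, and MRPS31P4 at 5.27 RPKM beside 7.65 RPKM for MRPS31, so the MRPS31 values are uncertain in the same way. For 20 of 64 members another gene starts within 1000 bases on the other strand, pointing away.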

How the data were processed

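RNA was measured in 8 libraries of NCI-H2009 cells. The deposited values are RPKM, 1 column per library, per the file headers, and all 8 columns were matched to samples by name. The build hg19 and the tool Cufflinks stand in a list, per the submitters' processing notes, with no role stated; aligner, counting, strand setting and annotation release are not given in the sources used here. Divided by the value of 1 read, RPKM came out whole within 0.03 reads in 100% of the 13979 tested genes, from which depth was inferred; no count test was run on these reads, since the step size depends on gene length. Tests used limma 3.58.1 in R 4.3.3 (variance trend, two-sided) on log2(RPKM + 1) for genes averaging at least 1 RPKM, with Benjamini-Hochberg adjustment over all of them and a threshold of 0.05. This scale understates the change of low genes. Both e3 guides were tested against controls with 2 groups; single guides and the controls against each other used a 4-group model; comparisons with 1 control used 6 libraries. The test was tried on simulated data with independent libraries and no difference between the control groups. That trial therefore cannot show how such differences affect the calls. Errors on RPKM are SDs over libraries.

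Named genes are the called members with the largest changes, up to 3 per direction by p in the other comparisons, the highest and lowest members of each subunit, members on chromosome 8, and members fixed by role; MRPS33, MRPL39 and members named in counts were added after their values were seen. The members and lists were chosen with earlier results of these data known. The motifs were chosen while the data were analysed. GENCODE 29 (another build) gave only chromosome and overlaps. Replicate numbers did not pair libraries (correlations of deviations between -0.022 and 0.014). The alternatives tried were another pseudocount, filter and scaling, a block, left-out libraries, an estimated correlation, group means and a 4-group model.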

Additional observations from a re-analysis of the deposited data

Results flagged for a closer look

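The 4 control and the 4 e3 libraries were examined for each of the 74 members and for the summed levels of the large subunit, the small subunit and both. 1 library stood far from the other 3 in 10 of 154 sets, all 10 of single members, and chance alone gives about 1 in 20. In the second guide 2 library, MRPL20 was low at 26.6 RPKM (the other e3 libraries 29.6 to 30.1), MRPL32 was low at 9.79 RPKM (13.0 to 13.5), MRPL2 was high at 19.0 RPKM (15.3 to 15.9) and MRPS31 was high at 7.60 RPKM (6.55 to 6.66). In the first guide 2 library MRPL10 was low at 21.7 RPKM (23.7 in the other 3). In the second guide 1 library MRPS17 was high at 4.93 RPKM and was listed at 0 in the other 3. Among controls, MRPL2 was high at 25.6 RPKM in the first non-targeting library (17.9 to 19.0), MRPL23 was low at 16.2 RPKM (18.7 to 19.0) and MRPL45 high at 45.9 RPKM (41.1 to 41.7) in the first library without a guide, and MRPL16 was low at 22.3 RPKM in the second (25.9 to 26.5).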

How the results depend on the processing

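No called member and no subunit median changed sign under the alternatives run, though uncalled members did. No filter, the replicate block, the estimated correlation, group means and the 4-group model leave each fitted change as it is. A sign could thus not change under them. In the comparison of e3 guides with all controls, 69 of 74 were below 0. The alternatives gave between 61 (without the first non-targeting library) and 71 (without the second library that had no guide). For the e3 guides against the controls, 9 members were called; the replicate block gave 4 (3 of them among the 9), an estimated correlation of 0.32 between libraries of a group gave 1, group means as samples gave 0 and the 4-group model gave 24, which include all 9. Against the non-targeting guide (18 calls), no filter gave 5 and the replicate block 11. Against no guide (9), no filter gave 3. For guide 1 (10) and guide 2 (20), no filter gave 6 and 12. For guide 2 against guide 1 (0), a minimum mean of 5 RPKM gave 1. For the controls against each other (8), no filter gave 4 and the replicate block 5. The replicate block changed no other count by over 1.5 times. With 1 library left out, counts ranged from 0 to 5 for the e3 guides against the controls, 0 to 20 against the non-targeting guide, 1 to 7 against no guide, 2 to 10 for guide 1, 4 to 21 for guide 2, 0 to 0 between the guides and 1 to 7 between the controls; a lone library was assumed to vary like the other groups. Left-out libraries and a higher minimum leave fewer libraries or genes in the fit, and no filter adds genes; otherwise the cause was not tested. Subunit medians moved by less than the spread between libraries in 147 settings and by more in 41. A median could not move with no filter, with the replicate block, or when the library left out lay outside the groups compared. The tally is therefore no measure of stability. Depth limits MRPS17 and MRPL49 most.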
